A study of Homo sapiens with 60 samples.

Results

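The genes of the cytosolic ribosomal proteins were followed in HT29 cells, an established human colorectal adenocarcinoma line, after 24 h with herbal extracts. The members were taken by symbol from the gene table. A member is a protein-coding gene named RPL or RPS and a number, with or without one of the paralog endings, or is RPLP0, RPLP1, RPLP2 or RPSA. The rule found 87 members among 60675 genes. Of these, 82 reached a level of 0.5 CPM (counts scaled to the total of each library) in at least 3 libraries and were among the 16022 genes tested. The 5 that did not were RPL3L, RPL10L, RPL39L, RPS4Y1 and RPS4Y2, each a paralog of another member.

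The extracts were made in 70% ethanol from 6 single herbs and 2 formulas. The herbs were Coptidis Rhizoma, Aconiti Lateralis Radix Preparata, Bupleuri Radix, Citri Unshius Pericarpium, Zizyphi Fructus and Cimicifugae Rhizoma, and the formulas Yijung-tang and Banhasasim-tang. Low, medium and high doses were 20, 100 and 500 µg/mL for most. Coptidis Rhizoma was given at 12.8, 64 and 320 µg/mL. The doses of Bupleuri Radix were 12.4, 62 and 310 µg/mL. Each dose had 3 libraries for Citri, Cimicifugae, Bupleuri and Aconiti, 2 for Coptidis, Zizyphi and Yijung-tang, and 1 for Banhasasim-tang, and vehicle (DMSO) had 3. Per the series design, an extract whose inhibitory concentration lay under the usual high dose was given at that concentration and at dilutions of it. The replicates are numbered without a statement that they were separate cultures, so the p-values measure the spread between these libraries, which may be technical.

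The cytosolic ribosome has a small subunit, which reads the mRNA, and a large subunit, which joins the amino acids. Nearly all of its proteins are made in equal numbers, and their mRNAs are among the most abundant of a growing cell. Most of these mRNAs begin with a cytosine followed by a run of pyrimidines, the terminal oligopyrimidine (TOP) motif, through which the kinase mTOR and the protein LARP1 control their translation and stability. In tumour cells of the colon, as in other dividing cells, ribosome production goes along with growth. A few members have a paralog that can take the same place in the ribosome or has a role outside it.

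The starts of some paralog pairs and of some members that changed with Coptidis Rhizoma are shown, and not all of them have this motif. Each line gives 30 bases before and 20 bases from the RefSeq start on, 5′ to 3′ on the gene's strand, on GRCh38.p14. Capitals mark an unbroken run of C and T that begins with a C at the annotated start. A sequence with no capitals has another base there.
RPL36A: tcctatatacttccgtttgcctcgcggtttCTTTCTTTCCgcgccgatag
RPL36AL: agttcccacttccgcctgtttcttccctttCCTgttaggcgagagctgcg
RPS27: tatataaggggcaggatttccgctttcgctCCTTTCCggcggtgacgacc
RPS27L: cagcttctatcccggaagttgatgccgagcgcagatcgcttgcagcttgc
RPL22: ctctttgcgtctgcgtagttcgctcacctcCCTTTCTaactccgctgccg
RPL22L1: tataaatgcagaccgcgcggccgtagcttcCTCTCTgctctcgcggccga
RPS13: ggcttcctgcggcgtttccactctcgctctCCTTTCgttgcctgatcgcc
RPL4: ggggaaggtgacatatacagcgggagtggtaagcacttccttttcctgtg
RPL3: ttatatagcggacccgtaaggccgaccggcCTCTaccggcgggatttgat
RPL6: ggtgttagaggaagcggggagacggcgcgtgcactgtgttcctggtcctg

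RPL36A lies at chrX:101390981-101391030 on the plus strand in this window, and RPL36AL at chr14:49620607-49620656 on the minus strand. RPS27 starts within chr1:153990732-153990781 on the plus strand and RPS27L within chr15:63157458-63157507 on the minus strand. Among the 70 members with a RefSeq start, 48 (68.6%) had a C at the start and a run of at least 5 pyrimidines, against 5.14% of all 27305 symbols with an entry. The letters searched were C or T on the strand of the gene, from the start base on. When the run could begin up to 5 bases to either side of the start, 56 members (80.0%) had it, against 25.2% of all symbols. RPL36A has a run of 10 pyrimidines and its paralog RPL36AL one of 3. RPS27 has a run of 7, whereas RPS27L has another base at the start. RPL22 and its paralog RPL22L1 both have the run, of 7 and 6 bases.

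Most members were expressed at high levels per transcript length. In vehicle cells, the median over the 82 tested members was 1170.5 TPM (counts divided by transcript length, then scaled to a common total), with quartiles of 856 and 1777 TPM and a range of 31.2 to 4288 TPM. The 5 lowest of all were the 5 tested paralogs. RPL26L1, the paralog of RPL26, had 31.2 ± 1.57 TPM, and RPL26 had 927 ± 82.8 TPM (SD, n = 3 vehicle libraries each). RPL22L1 had 55.7 ± 9.21 TPM and RPL22 had 948.5 ± 19.4 TPM. RPL7L1, a factor of large-subunit assembly named for its likeness to RPL7, had 78.8 ± 1.22 TPM and RPL7 had 1209 ± 45.1 TPM. RPS27L, a target of the tumour suppressor p53, had 101 ± 6.13 TPM and RPS27 had 2001 ± 44.6 TPM. RPL36AL had 145 ± 9.63 TPM and RPL36A had 760.4 ± 124.5 TPM. In each of these pairs the partner was well above its paralog. The lowest of the other members were RPS28, at 199.7 TPM, and RPS29, at 216.5 ± 49.8 TPM. The median transcript lengths used for them were 1326 and 582.5 bases, and the part of length in their rank was not tested. The highest was RPLP1 of the stalk that recruits translation factors, at 4288 ± 686 TPM. Of the members with the highest mean CPM, RPL13A had 3029 ± 349 TPM, RPL4 2213 ± 36.9 TPM, RPS2 3179 ± 258 TPM and RPL10 3213 ± 156 TPM. RPL3, which lies close to the peptidyl transferase centre, had 1177 ± 8.92 TPM, whereas RPL3L, its paralog in muscle, did not exceed 0.471 CPM in any library.

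**Figure D1:**
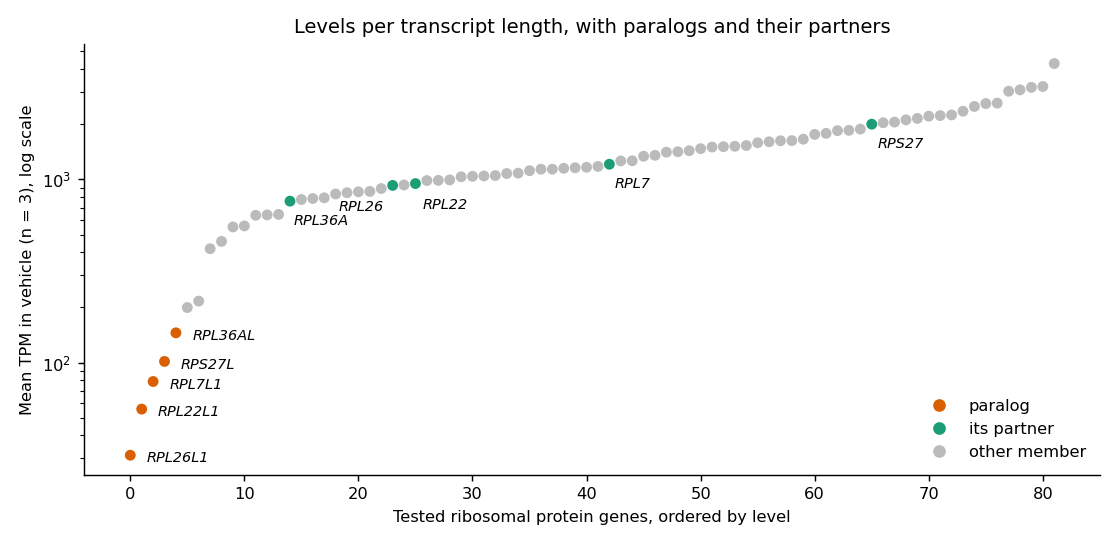
Mean TPM in the 3 vehicle libraries for each of the 82 tested ribosomal protein genes, ordered by level on a log scale. Paralogs (orange) fill the 5 lowest places, from 31.2 to 145 TPM, and their partners (green) lie at 760 TPM and above.

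HT29 cells are epithelial. EPCAM ran from 472 to 608 CPM and KRT8 from 3309 to 7725 CPM over the 60 libraries, while CDX1, another colon marker, was low at 0.225 to 1.7 CPM. Of 12 markers of other cell types, PTPRC, CD3E, COL1A2, DCN, ALB and HBB stayed at or below 0.157 CPM. From the low to the high dose of Coptidis Rhizoma, 2 of 10 colon markers were higher and 5 lower, CEACAM5 by −2.26 and VIL1 by −1.08 on the log2 scale, and their part in the results below was not tested. In a bulk sample, less RNA per cell and fewer cells of a kind cannot be told apart. The libraries held 18.1 to 36.7 M counts (median 24.1 M), so that 3 counts equal 0.0817 to 0.166 CPM, far below every tested member.

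A pair of libraries stood apart in these genes. In Zizyphi Fructus medium replicate 3, the members took 2.58% of the counts, against 4.94 to 7.21% in the other 59 libraries, and mitochondrial genes took 41.8%. Relative to replicate 2 of the same dose, 61 members were lower and 21 higher in it, with a median of −0.83 and a range of −2.48 to 2.49 on the log2 scale. RPS26 was at 1725 CPM in replicate 3 and 306 CPM in replicate 2. RPL39, at the exit tunnel of the large subunit, was at 113 CPM in replicate 3 and 629.5 CPM in replicate 2. The members thus did not move as a block in that library: the most raised and the most lowered belong to the same subunits. Vehicle replicate 1 differed in another way. All 82 members were higher in it than the mean of the other vehicle libraries, by a median of 0.34 and a range of 0.10 to 0.63 on the log2 scale, and its members took 7.21% of the counts, against 6.09% and 5.79% in replicates 2 and 3. Results that rest on either library are given with and without it, and their part in the remaining results was not tested.

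**Figure D2:**
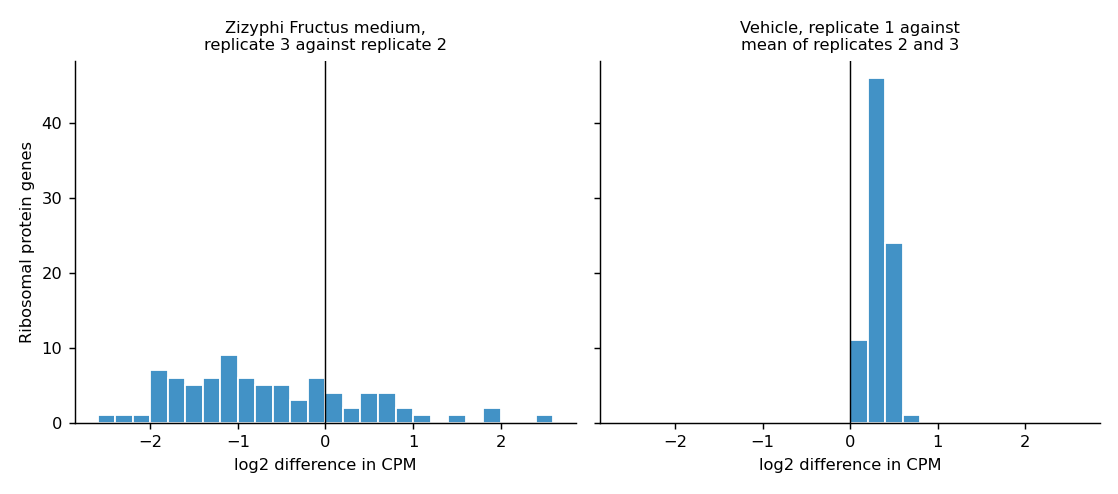
Histograms of the log2 difference in CPM for the 82 tested members, left for Zizyphi Fructus medium replicate 3 against replicate 2, right for vehicle replicate 1 against the mean of replicates 2 and 3. The left histogram spreads from −2.48 to 2.49 and the right one lies wholly above 0, from 0.10 to 0.63.

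Doses were compared within each extract, since vehicle was a set of libraries of its own. Coptidis Rhizoma, a rhizome rich in berberine and related alkaloids, was the only extract with members past the threshold at high against low dose when all libraries were fitted. Of the 82 members, 9 (11.0%) passed, 5 higher and 4 lower, where 56.2% of all genes tested passed (edgeR quasi-likelihood test, adjusted p below 0.05). The share of members was thus well under that of all genes. The members' median log2 change was 0.10, with quartiles of 0.00 and 0.18, whereas that of all genes was −0.02. The changes were narrow: their SD over members was 0.18, against 0.93 over all genes, and 2.44% of members moved by more than 0.5 on the log2 scale, against 42.9% of all genes. All genes include those near the bound of 0.5 CPM, and no set of genes matched for level was compared. Without Zizyphi Fructus medium replicate 3, 25 members passed, 20 higher and 5 lower, where 63.8% of all genes did. The median change stayed at 0.10, and the members' median biological coefficient of variation was 6.02% without that library and 9.96% with it. Without vehicle replicate 1 as well, 26 were higher and 6 lower. Scaling by the upper quartile gave 2 higher and 6 lower, and scaling by library totals 7 higher and 2 lower. The share of all genes that passed under these last settings is not given here.

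**Figure D3:**
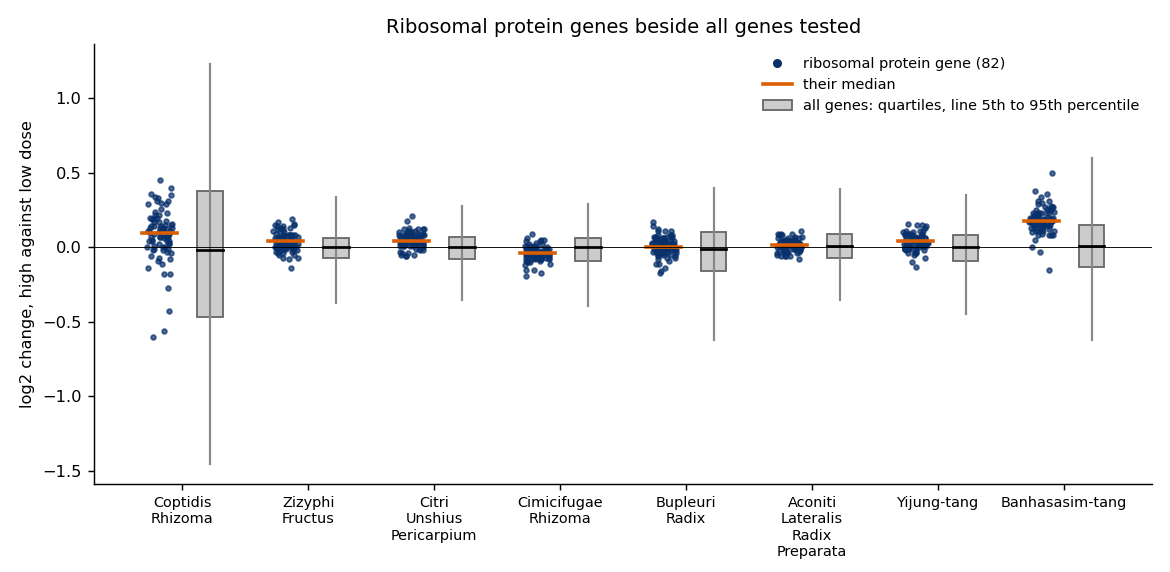
Log2 change at high against low dose for each of the 82 tested members (blue points, with their median in orange), left of the quartiles of all 16022 genes tested (grey boxes, lines from the 5th to the 95th percentile), for the 8 extracts. With Coptidis Rhizoma the members stay between −0.60 and 0.45, while the quartiles of all genes lie at −0.47 and 0.38.

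RPL4, which lines the peptide exit tunnel, rose with the smallest p of the members that rose. Its level was 2375, 2162 and 2119.7 CPM in vehicle, 2227 and 2116 CPM at the low dose, 2239.6 and 2230.2 CPM at the medium dose, and 2624 and 2695 CPM at the high dose. The high-dose libraries lay above all others, and low, medium and vehicle overlapped. The log2 change was 0.29 ± 0.05 (SE, n = 2 libraries a dose; edgeR adjusted p = 2.98e-06), a fold of 1.22. RPL4 lies at chr15:66498015-66524532 on the minus strand (GRCh38, GENCODE 29).

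RPS13, an early component of the small subunit, was at 734 and 648 CPM at the low dose, 678 and 697 CPM at the medium dose, and 919.7 and 903 CPM at the high dose. Vehicle replicate 1, at 925 CPM, was as high as the high dose, and the other vehicle libraries had 669.7 and 665 CPM. The log2 change from low to high dose was 0.40 ± 0.17 (edgeR adjusted p = 0.0411). The call was lost without either high-dose library or without low replicate 3. In all, RPS13 passed under 10 of 15 alternative settings.

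RPL23A, near the tunnel exit where the signal recognition particle docks, was at 480.3 and 470.5 CPM at the low dose, 449.6 and 501 CPM at the medium dose, and 559 and 619 CPM at the high dose. High and low libraries did not overlap, and the log2 change was 0.31 ± 0.13 (edgeR adjusted p = 0.039), a call lost without low replicate 2, low replicate 3 or high replicate 3. Genes named as pseudogenes of RPL23A held counts equal to 30.1% of its own, the most of any member. With these counts added its change was 0.19 and did not pass (edgeR adjusted p = 0.124). In all, RPL23A passed under 9 of 15 alternative settings. RPL5, which carries the small ribosomal RNA of the large subunit and can bind MDM2, was at 823 and 871 CPM at the high dose and 757 and 723.5 CPM at the low dose, and passed with a log2 change of 0.19 ± 0.06 (edgeR adjusted p = 0.00865). The call was lost with upper-quartile scaling, with no filter on low counts, and without low or high replicate 3, with edgeR adjusted p of 0.0602 to 0.135. RPL5 and, below, RPL6 fall outside the rule for named genes and were named after their values were seen.

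RPL36AL fell most. It was at 101, 84.6 and 82.5 CPM in vehicle, 77.9 and 78.1 CPM at the low dose, 67.9 and 70.7 CPM at the medium dose, and 47.1 and 55.8 CPM at the high dose. The levels went down with each dose and no dose overlapped the next. The log2 change from low to high was −0.60 ± 0.16 (SE, n = 2 a dose; edgeR adjusted p = 0.00123), a fold of 0.659. RPL36A, whose protein is nearly the same, was at 418 and 434 CPM at the high dose and 429 and 397 CPM at the low dose, with a change of 0.04 ± 0.21 that did not pass (edgeR adjusted p = 0.872). The difference between the 2 paralogs' changes was not tested. All counts of RPL36AL were whole numbers, whereas none of those of RPL36A was, and pseudogenes of RPL36A held 17.7% as many counts as the gene.

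RPS27L followed a like course, with 75.5, 61.6 and 65.9 CPM in vehicle, 67.4 and 65.8 CPM at the low dose, 56.7 and 57.9 CPM at the medium dose, and 43.5 and 46.6 CPM at the high dose. The 3 doses did not overlap. Its log2 change was −0.56 ± 0.11 (edgeR adjusted p = 1.51e-05). RPS27, its partner in the small subunit, was at 761 and 711 CPM at the high dose and 706 and 654 CPM at the low dose, a change of 0.11 ± 0.19 that did not pass (edgeR adjusted p = 0.63). RPS27L lies at chr15:63125872-63158021 and RPL36AL at chr14:49618519-49620685, both on the minus strand.

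RPL3 was at 1235, 1143 and 1128 CPM in vehicle, 1179.6 and 1129 CPM at the low dose, 1128 and 1118 CPM at the medium dose, and 862 and 855 CPM at the high dose. The fall was seen at the high dose, and the lower doses lay at the level of vehicle. The log2 change was −0.43 ± 0.18 (edgeR adjusted p = 0.044) with all libraries and −0.42 ± 0.06 (edgeR adjusted p = 1.19e-08) without Zizyphi Fructus medium replicate 3, where RPL3 was at its lowest, 375 CPM. In all, RPL3 passed under 9 of 15 alternative settings. Leaving out any of the 4 compared libraries ended the call, with edgeR adjusted p of 0.089 to 0.153, as did scaling by library totals, with a change of −0.30 (edgeR adjusted p = 0.372). RPL6, on the surface of the large subunit, was at 1038, 923 and 932 CPM in vehicle, 864 and 810.2 CPM at the low dose, 761 and 800.5 CPM at the medium dose, and 676 and 715 CPM at the high dose. Its log2 change was −0.27 ± 0.07 (edgeR adjusted p = 0.000731), but −0.14 with scaling by library totals, where it did not pass (edgeR adjusted p = 0.342).

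**Figure D4:**
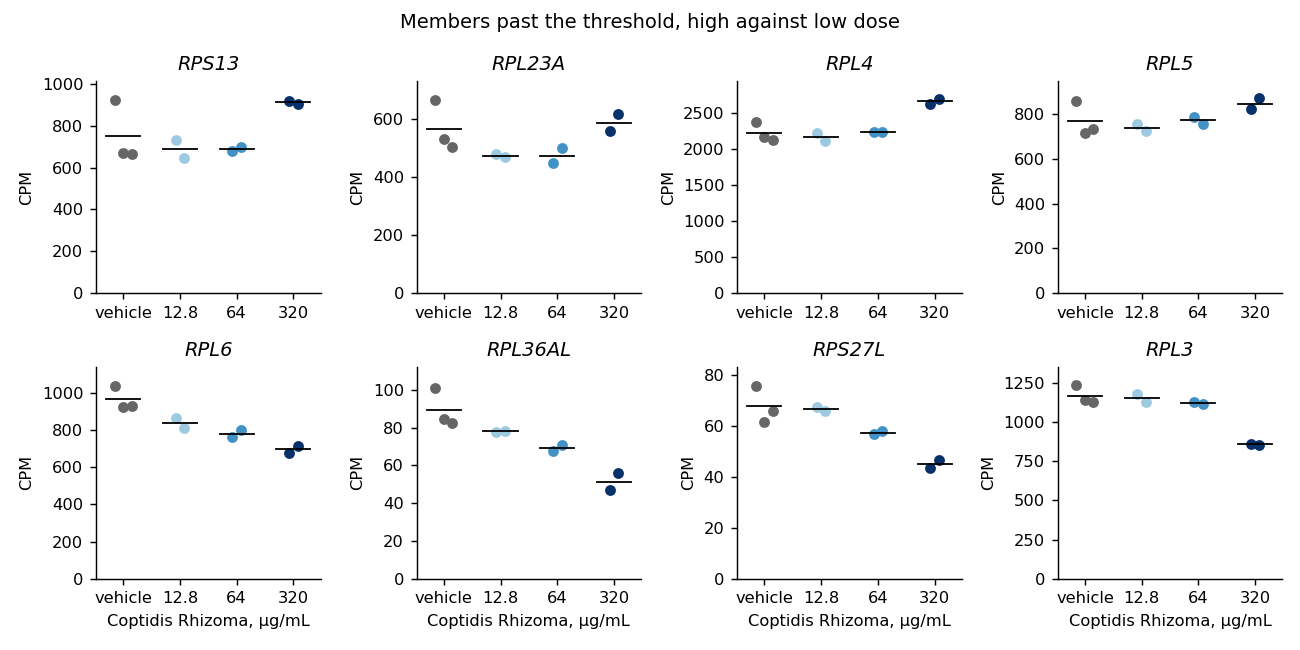
CPM of 8 members past the threshold at high against low dose of Coptidis Rhizoma, in vehicle and at 12.8, 64 and 320 µg/mL. Points are libraries and bars are group means. RPS13, RPL23A, RPL4 and RPL5 rise at 320 µg/mL. RPL6, RPL36AL and RPS27L step down from dose to dose, and RPL3 falls at 320 µg/mL only.

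By place in the ribosome, 4 of 50 large-subunit members were higher and 3 lower with the high dose, and 1 of 32 small-subunit members was higher and 1 lower, where 56.2% of all genes passed. Without Zizyphi Fructus medium replicate 3, 10 large-subunit members were higher and 4 lower, and 10 small-subunit members were higher and 1 lower, where 63.8% of all genes passed. The 3 stalk genes did not pass. RPLP1 had the largest positive change of any member, 0.45 ± 0.27 (edgeR adjusted p = 0.166), with 1251 and 1345 CPM at the high dose and 1011 and 893 CPM at the low dose. Without Zizyphi Fructus medium replicate 3 its standard error was 0.11 and it passed (edgeR adjusted p = 0.000625), as did RPLP0. The other paralog partners without a call were RPL7, RPL10, RPL22, RPL26, RPL39 and RPS4X, with changes from −0.01 to 0.30. The paralogs RPL7L1, RPL22L1 and RPL26L1 had changes of 0.06, 0.04 and 0.23 and did not pass. By start, 1 of the 47 tested members with the run rose and 0 fell, 1 of the 20 without it rose and 4 fell, and 3 of the 15 with no RefSeq entry rose. When Zizyphi Fructus medium replicate 3 was left out, 10 with the run rose and 1 fell, 4 without it rose and 4 fell, and 6 with no entry rose. RPL36AL, RPS27L, RPL3 and RPL6 lack the run at the annotated start, and RPL12, named after its values were seen, fell in the fit without that library and has it. The counts depend on where the start is placed, since RPL3 and RPL36AL have such a run within 5 bases of it, as has RPL4.

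With all libraries fitted, members passed between neighbouring doses only from the medium to the high dose. Between the medium and the low dose, 0 of 82 members passed, with 1 at an unadjusted p below 0.05, where 1.35% of all genes did (edgeR), and the median change was −0.03. RPS27L, RPL36AL and RPL6 had changes of −0.22, −0.17 and −0.10 in that step and did not pass. Between the high and the medium dose, 5 members were higher and 3 lower, where 52.7% of all genes passed, and the median change was 0.15. RPS6, a substrate of the S6 kinases, was among the higher ones at 0.22, and RPL3 and RPL5 were not among the 8. Without Zizyphi Fructus medium replicate 3, 28 members were higher and 5 lower, where 61.1% of all genes passed.

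The share of all counts taken by the members was higher at the high dose of Coptidis Rhizoma, but mitochondrial ribosomal RNA went the other way. The members took 5.61 and 5.38% at the low dose, 5.70 and 5.76% at the medium dose, and 6.36 and 6.51% at the high dose. Mitochondrial ribosomal RNA took 10.5 and 9.79% at the low dose, 6.44 and 6.26% at the medium dose, and 1.64 and 1.56% at the high dose, with 1.07 to 1.15% in vehicle. Of the counts of nuclear protein-coding genes, the members took 6.78 and 6.41% at the low dose, 6.44 and 6.48% at the medium dose, and 6.76 and 6.90% at the high dose, and the groups overlapped. The difference between high and low dose was 0.947 percentage points of all counts, with a pooled SD of 0.136, and 0.232 points of nuclear protein-coding counts, with a pooled SD of 0.197. Named pseudogenes of the members added 0.0458 to 0.0825% of the counts.

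**Figure D5:**
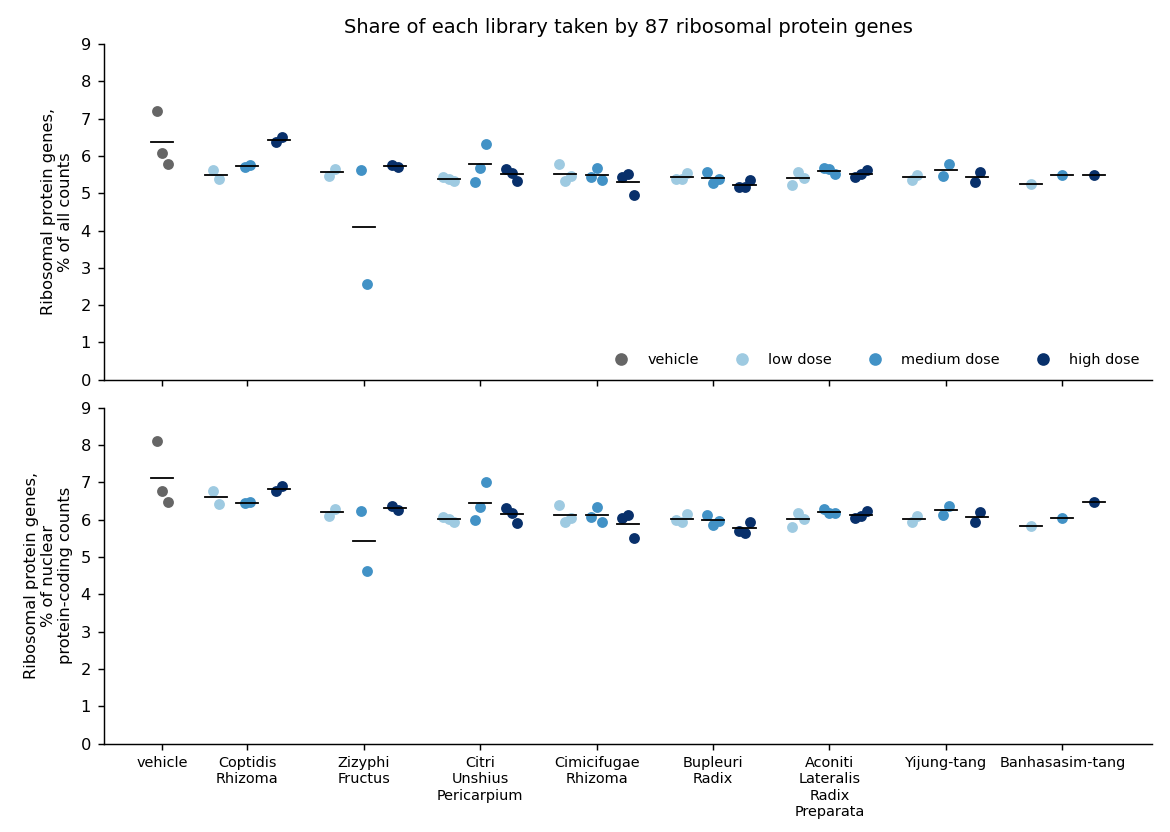
Share of the counts of each of the 60 libraries taken by the 87 members, above as percent of all counts, below as percent of the counts of nuclear protein-coding genes, by extract and dose. Bars are group means. The rise with Coptidis Rhizoma, to 6.36 and 6.51% in the upper panel, is smaller in the lower one, and Zizyphi Fructus medium replicate 3 is lowest in both.

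For the other 7 extracts, 0 of 82 members passed between high and low dose in edgeR. All genes tested passed at 0% for Zizyphi Fructus, 0.144% for Citri Unshius Pericarpium, 0.874% for Cimicifugae Rhizoma, 12.9% for Bupleuri Radix, 2.71% for Aconiti Lateralis Radix Preparata, 0.206% for Yijung-tang and 1.73% for Banhasasim-tang. At an unadjusted p below 0.05 there were 0, 1, 0, 2, 0, 0 and 4 members in that order, and the DESeq2 Wald test called 0 members for each of these 7 extracts as well. With Zizyphi Fructus, where 0% of all genes passed, the 5th and 95th percentiles of the changes of all genes still lay at −0.37 and 0.34. With Bupleuri Radix, the extract with the next most changed genes, the members' median change was 0.00 and their range −0.17 to 0.17. Of all genes, 10.8% moved by more than 0.5, with no matching for level. RPL7L1 was at 243, 251.5 and 244 CPM at its high dose and 224, 232 and 227 CPM at its low dose. The groups did not overlap. RPL7L1 passed at a change of 0.12 only without Zizyphi Fructus medium replicate 3 (edgeR adjusted p = 0.0121), where 22.7% of all genes passed.

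The medians of the members were 0.04 for Zizyphi Fructus, 0.05 for Citri Unshius Pericarpium, −0.04 for Cimicifugae Rhizoma, 0.02 for Aconiti Lateralis Radix Preparata and 0.04 for Yijung-tang. All of these lay within 0.05 of the median of all genes. Banhasasim-tang had a median of 0.18, with 79 of 82 members above 0, but 1 library a dose, so its spread was taken from the other groups. Its members took 5.25, 5.48 and 5.48% of all counts at the low, medium and high dose. Of nuclear protein-coding counts they took 5.83, 6.04 and 6.48% in that order, while mitochondrial ribosomal RNA took 1.11, 2.07 and 10.2% of all counts. RPL22L1 had its largest change there, with 29.5 CPM at the high dose and 20.8 CPM at the low dose, a log2 change of 0.50 ± 0.20 that did not pass. In the medium dose of Citri Unshius Pericarpium, 80 of 82 members were above the low dose, by a median of 0.11, and 0 passed, as 0% of all genes did, with 5 members at an unadjusted p below 0.05 in edgeR. Its replicate 3 had a member share of 6.33%, against 5.31 and 5.68% in replicates 1 and 2.

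For Zizyphi Fructus, the medium dose gave calls that rested on the library that stood apart. Between medium and low dose 13 members were higher and 34 lower, where 31.4% of all genes passed. Between high and medium dose 39 were higher and 7 lower, where 32.3% of all genes passed. Without replicate 3 of the medium dose, 0 members passed in either step, as 0% of all genes did in edgeR, with 1 member at an unadjusted p below 0.05 for medium against low and 2 for high against medium.

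The steps between neighbouring doses gave 0 calls among the members for the other 6 extracts in edgeR. From low to medium dose, 0.00624% of all genes passed for Cimicifugae Rhizoma, 0.0250% for Banhasasim-tang and 0% for the other 4 of these extracts, and members at an unadjusted p below 0.05 were the 5 of Citri Unshius Pericarpium. From medium to high dose, all genes passed at 0.0562% for Citri Unshius Pericarpium, 0.374% for Cimicifugae Rhizoma, 9.71% for Bupleuri Radix, 1.79% for Aconiti Lateralis Radix Preparata, 0.0624% for Yijung-tang and 0.736% for Banhasasim-tang, with 1, 0, 1, 0, 0 and 2 members at an unadjusted p below 0.05 in that order.

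The change with Coptidis Rhizoma was set against that with Zizyphi Fructus, whose libraries share its set, by the difference of the 2 high against low changes. For 4 members the difference passed, where 42.9% of all genes did. It was 0.28 ± 0.07 for RPL4 (edgeR adjusted p = 0.000943), with a change of 0.29 for Coptidis Rhizoma and 0.01 for Zizyphi Fructus. It was −0.62 ± 0.22 for RPL36AL (edgeR adjusted p = 0.0208), −0.49 ± 0.15 for RPS27L (edgeR adjusted p = 0.00666) and −0.27 ± 0.09 for RPL6 (edgeR adjusted p = 0.0185). Without Zizyphi Fructus medium replicate 3, 13 members passed, 8 higher and 5 lower, where 52.9% of all genes did. In the other 3 sets, the difference passed for 0 of 82 members, where 0.200%, 8.52% and 0.462% of all genes passed, with 1, 0 and 0 members at an unadjusted p below 0.05 in edgeR. For the same genes, other extracts gave changes of smaller size. Over the 7 others, RPL4 ran from −0.06 to 0.11, RPL36AL from −0.07 to 0.11 and RPL6 from −0.01 to 0.14. RPS27L ran from −0.17 to 0.04 and was below 0 with all of them except Aconiti Lateralis Radix Preparata.

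Against vehicle, most members were lower at the high dose of the extracts, and the number that passed depended on both libraries that stood apart. The members' median log2 level against the mean of all libraries was 0.44, 0.14 and 0.09 in vehicle. For the 7 extracts other than Coptidis Rhizoma it ran from −0.11 to 0.06 at the low dose and from −0.16 to 0.08 at the high dose. For Coptidis Rhizoma it was 0.14 and 0.06 at the low dose and 0.16 and 0.22 at the high dose. Vehicle was also a set of libraries of its own, and the part of this was not tested. The 8 comparisons share the 3 vehicle libraries. With all libraries, 2 members were higher and 11 lower with Coptidis Rhizoma, where 62.9% of all genes passed. The members that passed were all lower with the others. They numbered 6 for Zizyphi Fructus, where 6.90% of all genes passed, and 19 for Citri Unshius Pericarpium, where 13.2% passed. They numbered 28 for Cimicifugae Rhizoma, where 18.0% passed, and 33 for Bupleuri Radix, where 27.0% passed. For Aconiti Lateralis Radix Preparata there were 28 with 17.3% of all genes, for Yijung-tang 8 with 7.65%, and for Banhasasim-tang 1 with 7.60%. The median changes of the members lay between −0.29 and −0.16 for these 7 extracts and at −0.03 for Coptidis Rhizoma.

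Without vehicle replicate 1, the 7 medians lay between −0.16 and −0.03, and 0 to 7 members passed, where 1.28 to 16.4% of all genes did. The median for Coptidis Rhizoma was then 0.09, with 9 members higher and 4 lower, where 59.7% of all genes passed. Without Zizyphi Fructus medium replicate 3 instead, 9 members were higher and 21 lower with Coptidis Rhizoma, where 69.5% of all genes passed. For the 7 others, all that passed were then lower. They were 38 for Zizyphi Fructus (21.0% of all genes), 54 for Citri Unshius Pericarpium (29.1%), 59 for Cimicifugae Rhizoma (32.9%) and 65 for Bupleuri Radix (40.2%). They were 65 for Aconiti Lateralis Radix Preparata (32.4%), 49 for Yijung-tang (22.0%) and 17 for Banhasasim-tang (18.9%). Without both libraries, 6 to 40 were lower with the 7 extracts, where 10.1 to 30.5% of all genes passed, and the medians stayed between −0.16 and −0.03. With Coptidis Rhizoma, 29 members were higher and 7 lower without both libraries, where 67.4% of all genes passed, and the median was 0.09. The prevailing direction among its called members thus depended on these libraries. RPS29, of the small subunit, was at 43.3 to 82.7 CPM in the high-dose libraries and at 137, 97.2 and 79.9 CPM in the vehicle libraries. RPL36AL, RPS27L, RPL6 and RPL3 were lower with Coptidis Rhizoma against vehicle too, by changes of −0.80, −0.59, −0.47 and −0.44, and RPL4 was higher, at 0.26 (edgeR adjusted p = 8.35e-06, 1.58e-06, 1.31e-08, 0.0202 and 2.97e-06). RPS13 and RPL23A did not pass there, with changes of 0.28 and 0.05.

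Other genes tied to the ribosome were followed at the high against the low dose of Coptidis Rhizoma, where 56.2% of all genes passed. Of the ribosome genes outside the symbol rule, FAU and RACK1 had changes of 0.04 and 0.20 and did not pass (edgeR adjusted p = 0.808 and 0.142). Among 24 translation factors and other mRNAs listed as having a TOP start, 5 rose and 4 fell, with a median change of −0.03. The starts of these 24 were not looked at one by one. TPT1, a growth-linked protein, rose by 0.46 ± 0.06, while PABPC4, which binds poly(A) tails, was at −0.51 ± 0.08 and NPM1, of ribosome assembly in the nucleolus, at −0.41 ± 0.08 (edgeR adjusted p = 3.89e-08, 4.53e-07 and 6.34e-05). The elongation factors EEF2, EEF1B2, EEF1D and EEF1A1 were the others that rose, by 0.28 to 0.36.

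A further list held 14 host RNAs of small nucleolar RNAs, which encode no known protein or an unrelated one. They were listed as RNAs with a TOP start, and their starts were not looked at one by one. Of the 14, 8 rose and 2 fell, with a median of 0.47, beside 56.2% of all genes. ZFAS1 was at 105 and 93.7 CPM at the low dose, 105 and 110.0 CPM at the medium dose, and 239 and 251 CPM at the high dose. It rose by 1.30 ± 0.08 on the log2 scale (edgeR adjusted p = 5.71e-17). SNHG32 rose by 1.12 ± 0.11 and SNHG5 by 0.89 ± 0.18 (edgeR adjusted p = 8.31e-12 and 4.13e-05). Of 11 chaperones and importers that escort ribosomal proteins, 0 rose and 6 fell, with a median of −0.39, a share near the 56.2% of all genes. The importins IPO4 and IPO9 were at −0.83 ± 0.07 and −0.80 ± 0.13, and HEATR3, which brings RPL5 and RPL11 into the nucleus, at −0.52 ± 0.10 (edgeR adjusted p = 2.48e-13, 6.85e-07 and 2.13e-05).

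Of 15 regulators of TOP mRNAs, 5 rose and 2 fell, with a median of 0.07, beside 56.2% of all genes. EIF4EBP1, a brake on cap-dependent translation under mTOR, was at 21.4 and 20.1 CPM at the low dose, 33.0 and 33.5 CPM at the medium dose, and 56.3 and 57.2 CPM at the high dose. It rose by 1.46 ± 0.12 (edgeR adjusted p = 4.88e-14). MYC, which drives ribosome production, was at 207 and 206 CPM at the low dose, 185 and 187 CPM at the medium dose, and 120.5 and 128 CPM at the high dose, a change of −0.73 ± 0.07 (edgeR adjusted p = 1.48e-12). EIF4EBP2 rose by 0.30 ± 0.07 (edgeR adjusted p = 0.000263), and MTOR and RPTOR did not pass. Of 20 genes of ribosome rescue, collision sensing and hibernation, 5 rose and 7 fell, with a median of −0.13, a share near the 56.2% of all genes. ZNF598, which marks collided ribosomes, rose by 0.74 ± 0.09, and ANKZF1, of the release of stalled chains, by 0.55 ± 0.09, while TCF25 of the same quality control was at −0.55 ± 0.07 (edgeR adjusted p = 3.34e-09, 7.18e-07 and 5.05e-09).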

How the data were processed

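Per the labels, 1 mRNA library per sample was made from total RNA with a directional kit and read as paired ends, and per the submitters' processing notes RSEM 1.3.3, STAR 2.7.3a, FastQC 0.11.9 and Trim Galore 0.6.5 were among the tools, on build GRCh38. No source used here names the annotation. The authors deposited expected counts per gene, unscaled; 91.03% were whole (to 1e-09), and all were rounded. Of 270 columns, 210 belong to samples not analysed here. Such estimates split reads shared by near-identical members and pseudogenes: for 48 members over 50% of values were not whole.

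In edgeR 4.0.16 (R 4.3.3), genes reaching 0.5 CPM in 3 or more libraries were scaled by TMM and fitted with 25 group means over 60 libraries (35 residual degrees of freedom); p-values were adjusted over all 16022 genes by Benjamini and Hochberg, at 0.05. TPM used the median transcript length per gene in GENCODE 29. The method was also run on simulated counts in which few genes changed. That run cannot vouch for calls where most genes passed, and its outcome is not reported here. Members, lists and tests were chosen with earlier results of these data known. Named are, per extract, the 3 largest rises and falls past the threshold, the 4 members of highest and of lowest mean CPM, paralogs with partners, and 3 genes per list. The labels give 0.1% DMSO as vehicle and the series design 2%. Coordinates are from GENCODE 29 and starts from RefSeq. Alternatives were other scalings, no filter, a replicate block, compared groups alone, DESeq2 1.42.0, added pseudogene counts and left-out libraries. Counting floors cover counting error only. Some results that the rule would name are not reported here.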

Additional observations from a re-analysis of the deposited data

Results flagged for a closer look

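For 4 members the change between high and low dose differed between Coptidis Rhizoma and Zizyphi Fructus, by the test of the difference itself in edgeR. The difference was 0.28 for RPL4, a rise, and −0.27 for RPL6, −0.49 for RPS27L and −0.62 for RPL36AL. RPL4 was at 2624 and 2695 CPM at the high and 2227 and 2116 CPM at the low dose of Coptidis Rhizoma, and at 2120.6 and 2019.4 CPM at the high and 2045 and 2073 CPM at the low dose of Zizyphi Fructus. RPL36AL was at 47.1 and 55.8 CPM at the high and 77.9 and 78.1 CPM at the low dose of Coptidis Rhizoma, and at 74.9 and 81.1 CPM at the high and 73.8 and 80.1 CPM at the low dose of Zizyphi Fructus.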

How the results depend on the processing

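For Coptidis Rhizoma at high against low dose, the count of members past the threshold was 17 with no filter on low counts, 32 without both libraries that stood apart and 47 with the compared groups fitted alone. It ran from 5 to 25 when 1 library was left out. The members' median was 0.04 with upper-quartile scaling and 0.23 with library totals. RPL36AL, RPS27L and RPL4 passed under all 15 alternatives run for each. With 3 replicates, correlations of same-numbered high-dose and low-dose libraries ran from −0.06 to 0.13. Those of differently numbered libraries ran from −0.14 to 0.05. The same-numbered values were all above 0 for Citri Unshius Pericarpium, Cimicifugae Rhizoma and Bupleuri Radix. With 2 replicates the same-numbered and other values are equal and opposite, so they cannot decide on pairing. Whether the replicate numbers pair the libraries was thus not settled. With the replicate block 11 members passed for Coptidis Rhizoma, 1 for Bupleuri Radix and 2 for Banhasasim-tang against vehicle. For Bupleuri Radix, 3 passed without both libraries and 5 with the groups alone, 0 to 1 with 1 library left out, and the median was −0.05 with library totals. Groups alone gave 2 for Yijung-tang, and leaving out both libraries gave 2 for Banhasasim-tang, whose median was 0.07 with library totals. Against vehicle, 36, 12, 18 and 7 members passed without both libraries for Coptidis Rhizoma, Zizyphi Fructus, Yijung-tang and Banhasasim-tang, and 0 with groups alone for the last 3. With 1 library left out, counts against vehicle ran from 12 to 30 for Coptidis Rhizoma, 0 to 38 for Zizyphi Fructus, 1 to 54 for Citri Unshius Pericarpium, 5 to 59 for Cimicifugae Rhizoma, 7 to 65 for Bupleuri Radix, 3 to 65 for Aconiti Lateralis Radix Preparata, 0 to 49 for Yijung-tang and 0 to 17 for Banhasasim-tang. Medians at high against low dose then ran from 0.04 to 0.14, 0.02 to 0.05, 0.03 to 0.08, −0.07 to 0.01, −0.02 to 0.03, −0.01 to 0.04 and −0.00 to 0.07 for the first 7 extracts in that order. The share of all genes that passed against vehicle moved as well. Leaving Coptidis Rhizoma and Banhasasim-tang aside, it was 1.28 to 16.4% without vehicle replicate 1. It was 21.0 to 40.2% for the same extracts without Zizyphi Fructus medium replicate 3. Without both libraries it was 67.4% for Coptidis Rhizoma, 10.8% for Zizyphi Fructus and 10.1% for Yijung-tang. For the other counts in this paragraph that share is not given. The share difference on nuclear protein-coding counts was 0.232 points for Coptidis Rhizoma and 0.647 for Banhasasim-tang. The cause of these shifts was not tested. The members that passed at high against low dose of Coptidis Rhizoma kept their direction under the 15 alternatives run for each. For named members with changes near 0 the sign can depend on the scaling, since the members' median itself ran from 0.04 to 0.23. Groups alone could not be fitted for Banhasasim-tang at high against low dose.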

Other observations

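Among the genes around the ribosome, some moved at the high against the low dose of extracts whose members did not pass. With Bupleuri Radix, where 12.9% of all genes passed (22.7% without Zizyphi Fructus medium replicate 3), 3 of 11 chaperones and importers rose in edgeR, BCCIP by 0.29 ± 0.05, IPO4 by 0.23 ± 0.06 and IPO5 by 0.13 ± 0.04 on the log2 scale (adjusted p = 6.77e-05, 0.00314 and 0.0312). Of 15 regulators of TOP mRNAs, 3 rose with it, EIF4EBP1 by 0.34 ± 0.10, MYC by 0.22 ± 0.05 and LARP1 by 0.15 ± 0.05, and TIA1 fell by 0.20 (edgeR adjusted p = 0.0183, 0.00354, 0.0323 and 0.00257). Of 20 rescue genes, 3 passed, a share near that of all genes. PELO, which splits stalled ribosomes, rose by 0.35 ± 0.07, USP10 rose by 0.20 ± 0.05 and MAP3K20 fell by 0.19 (edgeR adjusted p = 0.000617, 0.00369 and 0.0221). With Aconiti Lateralis Radix Preparata, RPTOR, the mTOR partner, was at −0.68 ± 0.07 and ASCC3 at −0.30 ± 0.05 (edgeR adjusted p = 2.37e-09 and 0.000252). EIF4EBP1 had a change of 1.19 ± 0.17 with Banhasasim-tang, where each dose had 1 library, so the standard error and p assume that these libraries vary like the other groups (edgeR adjusted p = 9.54e-06).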
